A study of Mus musculus with 6 samples.

Results

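The genes described here encode the calcium store of the heart muscle cell. They are 10 of the 26881 genes deposited as a table, taken by their gene names: Atp2a2, Pln, Ryr2, Casq2, Jph2, Trdn, Asph, Hrc, Itpr2 and Itpr3. Their RNA was compared between 3 Cfp1-cKO and 3 WT mouse hearts at 2 weeks of age. Cfp1-cKO mice (genotype label "CXXC1 null") carried floxed Cfp1 alleles, encoded by Cxxc1, on a C57BL/6 background and a Cre recombinase under the Myh6 promoter, which is active in cardiomyocytes, so other cells of these hearts keep the gene. WT mice have the genotype label "Wild-type". Pups of the cross that gave Cfp1-cKO mice all carry at least 1 floxed allele. The paper names WT littermates as controls where it compares growth. For the sequenced WT hearts, the sources used here do not say whether they came from that cross or which alleles they carried. Whether a library was 1 heart or several is not stated either, so the p-values measure the spread between these libraries only.

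With each heartbeat, calcium that enters through the surface membrane opens ryanodine receptors, the release channels of the sarcoplasmic reticulum, and the calcium they release starts contraction. A calcium pump, SERCA2, then returns calcium to the store and the muscle relaxes. Phospholamban holds the pump back until it is phosphorylated, calsequestrin buffers calcium inside the store, and junctophilin keeps the store next to the surface membrane. This machinery is built up as cardiomyocytes mature after birth.

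Values are FPKM, the fragments of a gene per kilobase of its exons relative to the library's total, so levels of different genes can be compared per length. Library totals worked back from the FPKM steps were 16672652 to 19481847 fragments in Cfp1-cKO and 18007474 to 22700811 in WT hearts. Genotypes were compared by limma on log2(FPKM + 1) over the 11017 genes whose mean reached 1 FPKM, and a gene was called higher or lower where p, adjusted after Benjamini-Hochberg, was below 0.05 and the log2 fold change was beyond 0.5 in size. All log2 fold changes are Cfp1-cKO over WT on this scale, which understates the changes of low genes. The median over all tested genes was 0.35, so each value is also given after median-of-ratios scaling between libraries, which brings that median to 0.00. Mitochondrially encoded genes, which count in the library total, took 29.6% to 34.9% of fragments in Cfp1-cKO and 36.9% to 39.2% in WT hearts. Their part in that median was not tested.

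Markers of lung epithelium differed between the genotypes, and their part in the results was not tested. All 12 lung epithelium markers were higher in Cfp1-cKO hearts (11 after scaling), against 21.1% of all tested genes (3.52% after scaling). Their summed levels were 3244 to 4934 FPKM in Cfp1-cKO and 0.534 to 6.86 FPKM in WT hearts. Lamp3 and Cldn18 were listed at 0 in all WT libraries, so they passed the filter on low values only through the Cfp1-cKO libraries. Which other markers did so was not counted, so the count rests partly on that filter. Of 14 cardiomyocyte markers none was called higher by limma or voom, also at an unadjusted p below 0.05, and 3 were lower (Tnnt2, Ckm and Myl3; 4 after scaling), against 1.68% of all tested genes (3.27% after scaling), with overlapping sums of 8464 to 12087 FPKM in Cfp1-cKO and 9846 to 17803 FPKM in WT hearts. Cxxc1 itself had 8.02, 9.94 and 8.74 FPKM in Cfp1-cKO and 9.66, 12.9 and 10.03 FPKM in WT hearts and was not called (log2 fold change -0.26, adjusted p = 0.249 from limma; -0.66, adjusted p = 0.0582 after scaling). By Xist and Y-linked transcripts, Cfp1-cKO 1 and 2 and WT 2 were taken as female and the other libraries as male. Cfp1-cKO 1 and 2 also had low levels of Y-linked Ddx3y (0.938 and 0.658 FPKM), against 0 FPKM in WT 2, and the source of these was not tested. In whole hearts, fewer cells of a type and less RNA per cell cannot be told apart.

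Cfp1 binds unmethylated CpG, so the promoters of members that moved and of members that did not are shown for their CpG. Each is the RefSeq window of 300 bases on GRCm38.p6, with 250 bases before the start and 50 after it, 5′ to 3′ on the gene's strand, and every CG is in capitals. Windows were found for 7 of the 10 genes, with none for Atp2a2, Trdn and Asph. The Pln window is at chr10:53337436-53337735 (plus strand), that of Ryr2 at chr13:12106896-12107195 (minus strand), that of Casq2 at chr3:102086165-102086464 (plus strand) and that of Itpr3 at chr17:27057054-27057353 (plus strand).
Pln: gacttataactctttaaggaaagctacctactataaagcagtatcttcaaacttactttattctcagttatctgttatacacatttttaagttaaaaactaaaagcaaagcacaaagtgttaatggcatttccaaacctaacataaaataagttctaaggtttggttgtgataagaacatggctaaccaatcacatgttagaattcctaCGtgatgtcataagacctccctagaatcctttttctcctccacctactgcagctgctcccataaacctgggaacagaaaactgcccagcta
Ryr2: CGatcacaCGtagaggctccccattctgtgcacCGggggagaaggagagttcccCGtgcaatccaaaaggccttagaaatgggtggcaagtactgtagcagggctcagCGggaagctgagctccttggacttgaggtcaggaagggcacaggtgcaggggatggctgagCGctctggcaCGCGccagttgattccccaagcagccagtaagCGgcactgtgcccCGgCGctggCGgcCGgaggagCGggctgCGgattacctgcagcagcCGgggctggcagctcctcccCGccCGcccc
Casq2: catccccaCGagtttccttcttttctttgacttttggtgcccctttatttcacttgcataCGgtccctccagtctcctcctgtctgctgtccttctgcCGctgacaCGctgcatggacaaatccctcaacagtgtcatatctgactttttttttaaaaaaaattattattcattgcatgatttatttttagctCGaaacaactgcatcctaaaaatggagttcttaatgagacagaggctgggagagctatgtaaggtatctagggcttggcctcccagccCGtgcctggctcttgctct
Itpr3: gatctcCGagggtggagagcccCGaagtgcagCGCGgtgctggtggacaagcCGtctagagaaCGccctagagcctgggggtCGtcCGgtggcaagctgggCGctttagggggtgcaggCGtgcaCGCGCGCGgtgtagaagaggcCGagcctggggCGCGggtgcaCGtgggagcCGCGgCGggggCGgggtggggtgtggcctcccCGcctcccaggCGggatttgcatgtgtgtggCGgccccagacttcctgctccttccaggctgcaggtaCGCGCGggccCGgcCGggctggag

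The Pln window holds 1 CpG at a GC content of 36%, and 5.78% of all 27025 mouse windows hold fewer. The windows of Hrc, Casq2 and Jph2 hold 3, 6 and 7 CpG. Those of Ryr2, Itpr2 and Itpr3 hold 18, 26 and 30, and 88.5% of all windows hold fewer than that of Itpr3. The median was 7 CpG over all windows and 21 over the 8188 windows of tested genes. Pln and Ryr2, whose RNA was lower in Cfp1-cKO hearts, had 1 and 18 CpG. Atp2a2, which was also lower, has no window, and a relation of CpG to fold change was not tested. On either strand, the letters TATAAA occurred in the Pln window alone among the 7 and in 14.2% of all windows. AGATAA, a letter string recognized by GATA factors, likewise occurred in Pln alone and in 11.4% of all windows. The E-box CACGTG, which itself holds a CG, occurred in Itpr3 alone and in 7.24% of all windows. None of these 3 strings was found in the windows of Ryr2, Casq2, Jph2, Hrc and Itpr2.

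In Cfp1-cKO hearts the RNA of the pump, its inhibitor and the release channel was lower, and the other 7 divided. On the deposited scale Trdn and Hrc lay below WT without overlap and were not called, Jph2 and Asph overlapped with WT, and Casq2, Itpr2 and Itpr3 lay above WT, of which only Itpr3 was called. After scaling, Trdn and Hrc were called lower, Jph2 also lay below WT without overlap, and none lay above WT without overlap but Itpr3. All 10 genes passed the filter on low values, Itpr3 only through the Cfp1-cKO libraries, since all WT libraries were below 1 FPKM. By limma, 4 of 10 were called, against 22.8% of all tested genes: Atp2a2, Pln and Ryr2 lower (3 of 10, against 1.68%) and Itpr3 higher (1 of 10, against 21.1%). After median-of-ratios scaling 5 of 10 were called, against 6.79% of 10902 genes, all 5 of them lower (against 3.27%): Atp2a2, Pln, Ryr2, Trdn and Hrc. None was called higher by limma then (against 3.52%), and none was higher at an unadjusted p below 0.05, whereas voom on the recovered fragments, without this scaling, called 1 higher and 3 lower. The genotypes did not overlap in 8 of 10 genes, 5 lower and 3 higher, against 49.7% of all genes (3.23% lower, 46.4% higher). After scaling they did not overlap in 7, 6 lower and 1 higher, against 31.4% (15.1% lower, 16.3% higher). The median of the 10 log2 fold changes was -0.21, against 0.35 for all genes, and -0.65 after scaling, against 0.00. Summed over the 10 genes, the level was 1292, 1193 and 1685 FPKM in Cfp1-cKO and 2157, 2617 and 2363 FPKM in WT hearts.

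**Figure D1:**
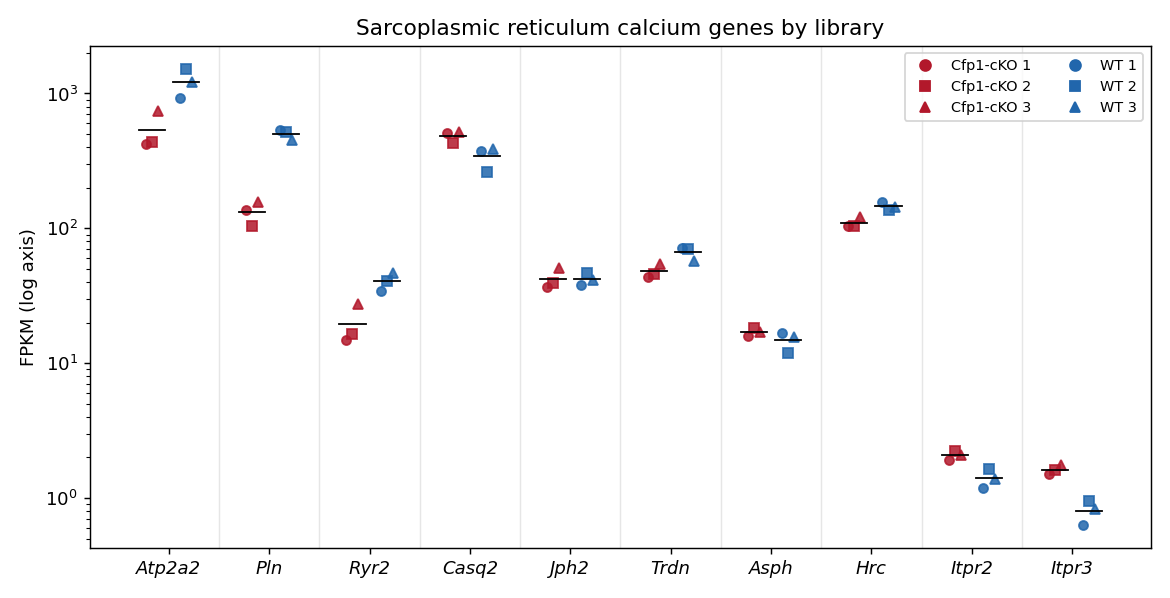
FPKM (log axis) of the 10 sarcoplasmic reticulum calcium genes in each library, with Cfp1-cKO in red left of WT in blue, a symbol for each library and black bars at group means. Pln, Atp2a2 and Ryr2 sit lower in all 3 Cfp1-cKO libraries, Jph2 overlaps (36.5 to 50.6 FPKM in Cfp1-cKO and 38.1 to 46.9 FPKM in WT), and Casq2 changes places with Pln.

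The order of the levels differed between the genotypes at the top. In Cfp1-cKO hearts the order by mean was Atp2a2, Casq2, Pln, Hrc, Trdn, Jph2, Ryr2, Asph, Itpr2 and Itpr3. In WT hearts Pln came before Casq2, and the rest of the order was equal. Every Cfp1-cKO library had more Casq2 than Pln, and every WT library had more Pln than Casq2. In Cfp1-cKO hearts the ranges of several neighbours overlapped, namely Atp2a2 with Casq2, Pln with Hrc, Trdn with Jph2, and Ryr2 with Asph. In WT hearts only those of Jph2 and Ryr2 did.

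Atp2a2 (ENSMUSG00000029467, chr5:122453513-122502225 on GRCm38, minus strand) encodes SERCA2, the pump that refills the store. It had 425, 434 and 738 FPKM in Cfp1-cKO hearts, against 928, 1526 and 1216 FPKM in WT hearts. Every Cfp1-cKO library was below every WT library, and Cfp1-cKO 3 was well above the other 2 of its genotype. The mean was 532 ± 178 FPKM in Cfp1-cKO and 1224 ± 299 FPKM in WT hearts (SD, n = 3 each). The log2 fold change was -1.22 (SE 0.27, adjusted p = 0.0197 from limma) and -1.66 after scaling (adjusted p = 0.0150 from limma). The call was lost without Cfp1-cKO 1 (adjusted p = 0.0526 from limma) or Cfp1-cKO 2 (adjusted p = 0.0814) and without the filter on low values (adjusted p = 0.0578). Between females (2 Cfp1-cKO and 1 WT) the log2 difference was -1.83, and between males (1 and 2) -0.53.

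Pln (ENSMUSG00000038583, chr10:53337667-53345987, plus strand), which encodes phospholamban, had the lowest log2 fold change of the 10 genes. It had 137, 105 and 156 FPKM in Cfp1-cKO hearts, against 534, 517 and 449 FPKM in WT hearts. The 3 libraries of each genotype lay close together and the genotypes were far apart. Cfp1-cKO hearts had 133 ± 26.0 FPKM, which is 26.5% of the 500.0 ± 44.8 FPKM in WT hearts (SD, n = 3 each). The log2 fold change was -1.92 (SE 0.18, adjusted p = 0.000700 from limma) and -2.37 after scaling (adjusted p = 0.00105 from limma). It was called lower with any 1 library left out (log2 fold change -2.05 to -1.76) and under every other alternative tried, and the difference was -2.101 between females and -1.65 between males. The kit did not keep strand, and 59.6% of the Pln exon bases are also in Gm47644 on the other strand, which was listed at 1.15 to 2.38 FPKM in Cfp1-cKO and 4.26 to 8.22 FPKM in WT hearts. Reads from the 2 genes cannot be told apart there, and how such reads were counted is not known here. The Pln level, its rank beside Casq2 and its size relative to Atp2a2 are therefore uncertain.

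The ratio of inhibitor to pump was lower in every Cfp1-cKO library than in any WT library. Pln/Atp2a2 was 0.323, 0.241 and 0.211 in Cfp1-cKO hearts, against 0.575, 0.339 and 0.369 in WT hearts. All 3 Cfp1-cKO ratios were below all 3 WT ratios, but Cfp1-cKO 1 came close to WT 2. The mean was 0.258 ± 0.0579 in Cfp1-cKO and 0.428 ± 0.129 in WT hearts (SD, n = 3 each). The log2 difference was -0.71 (SE 0.30), and it ranged from -0.88 to -0.48 with 1 library left out. The two-sided exact permutation test gave p = 0.10, the smallest it can give with 3 against 3, and 0.157 after adjustment over the 11 ratios tested.

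Ryr2 (ENSMUSG00000021313, chr13:11553102-12106945, minus strand) encodes the cardiac ryanodine receptor, the release channel. It had 15.0, 16.5 and 27.5 FPKM in Cfp1-cKO hearts, against 34.2, 40.8 and 46.4 FPKM in WT hearts. The genotypes did not overlap, and Cfp1-cKO 3 was again the highest of its genotype. The mean was 19.6 ± 6.82 FPKM in Cfp1-cKO and 40.5 ± 6.09 FPKM in WT hearts (SD, n = 3 each). The log2 fold change was -1.04 (SE 0.24, adjusted p = 0.0214 from limma) and -1.47 after scaling (adjusted p = 0.00999 from limma). The call was lost without Cfp1-cKO 1 (adjusted p = 0.0561 from limma) or Cfp1-cKO 2 (adjusted p = 0.0886) and without the filter on low values (adjusted p = 0.0509). The difference was -1.32 between females and -0.52 between males.

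The ratio of pump to release channel overlapped between the genotypes. Atp2a2/Ryr2 was 28.4, 26.3 and 26.9 in Cfp1-cKO hearts, against 27.1, 37.4 and 26.2 in WT hearts. WT 2 stood above the other 5 libraries. The log2 difference was -0.13 (SE 0.17, two-sided exact permutation p = 0.70), and 0.03 without WT 2. Of all tested genes, Ryr2 was the third closest to Atp2a2 in its pattern over the 6 libraries, with a root mean square difference of 0.188 in centred log2(FPKM + 1). Tmem82 (0.127) and Asb15 (0.182) were closer, and Fbxo31 (0.190) and Mlycd (0.203) followed. The genes closest to Pln were Tnni3, the cardiac troponin I gene (0.143), Dhrs7c, a protein of the sarcoplasmic reticulum (0.204), Fitm1 (0.231), Gm45716 (0.240) and Adhfe1 (0.245). Tnni3 had 530, 411 and 466 FPKM in Cfp1-cKO hearts, against 2073, 2030 and 1732 FPKM in WT hearts.

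**Figure D2:**
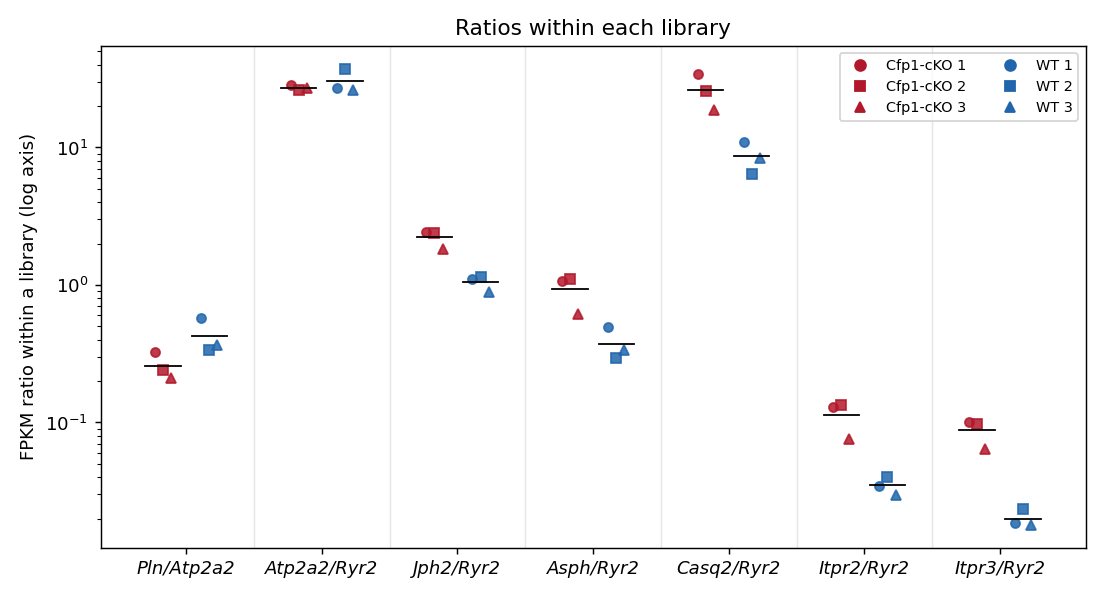
FPKM ratios (log axis) within each library, with Cfp1-cKO in red left of WT in blue, a symbol for each library and black bars at group means. Pln/Atp2a2 is lower in all Cfp1-cKO libraries (0.211 to 0.323) than in WT libraries (0.339 to 0.575), and Atp2a2/Ryr2 overlaps. The drawn ratios of junction, store and IP3 receptor genes to Ryr2, itself lower, are higher in all 3 Cfp1-cKO libraries. Trdn/Ryr2, also of a junction gene, overlapped between the genotypes and is not drawn.

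Inside the store, Casq2 and Hrc lay on opposite sides of WT. Casq2 (ENSMUSG00000027861, chr3:102086415-102146514, plus strand) encodes cardiac calsequestrin, the main calcium buffer of the store. It had 510, 426 and 517 FPKM in Cfp1-cKO hearts, against 376, 263 and 391 FPKM in WT hearts. No Cfp1-cKO library was as low as any WT library, but Casq2 was not called (log2 fold change 0.51, SE 0.19, adjusted p = 0.0800 from limma). It was called higher with FPKM rescaled to an equal sum in each library, or TPM scaling (0.63, adjusted p = 0.0399 from limma) and with sex as a covariate (0.63, adjusted p = 0.0309), an alternative chosen after seeing the data. After median-of-ratios scaling the genotypes overlapped (0.07, adjusted p = 0.870), and without WT 2 the deposited log2 fold change was 0.33.

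Relative to the release channel, Casq2 was higher in every Cfp1-cKO library than in any WT library. Casq2/Ryr2 was 34.1, 25.8 and 18.8 in Cfp1-cKO hearts, against 11.0, 6.46 and 8.42 in WT hearts. The groups did not overlap, and the log2 difference was 1.60 (SE 0.33, exact permutation p = 0.10, 0.157 adjusted over the 11 ratios). Ryr2 was itself called lower, so a gene that did not move also rises against it. How many of all genes separate when set against Ryr2 was not computed.

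Hrc (ENSMUSG00000038239, chr7:45335290-45338974, plus strand) encodes the histidine rich calcium binding protein of the store, which binds both SERCA2 and triadin. It had 105, 105 and 121 FPKM in Cfp1-cKO hearts, against 157, 137 and 144 FPKM in WT hearts. The genotypes did not overlap. Hrc was not called (log2 fold change -0.40, SE 0.14, adjusted p = 0.0708 from limma) but was called lower after scaling (-0.84, adjusted p = 0.0224 from limma). Hrc/Atp2a2 overlapped between the genotypes (log2 difference 0.82, SE 0.33, exact permutation p = 0.20).

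At the junction, Trdn and Asph encode triadin and junctin, the membrane proteins that tie calsequestrin to the release channel. Asph also encodes an aspartyl hydroxylase, and the gene's FPKM covers all its transcripts. Trdn (ENSMUSG00000019787, chr10:33080554-33476709, plus strand) had 43.8, 45.9 and 54.6 FPKM in Cfp1-cKO hearts, against 71.7, 70.8 and 57.3 FPKM in WT hearts. The genotypes did not overlap, with Cfp1-cKO 3 and WT 3 only a little apart. Trdn was not called (log2 fold change -0.46, SE 0.16, adjusted p = 0.0668 from limma) and was called lower after scaling (-0.90, adjusted p = 0.0268 from limma) and without WT 3 (-0.56, adjusted p = 0.0450 from limma).

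Asph (ENSMUSG00000028207, chr4:9448069-9669344, minus strand) had 16.0, 18.2 and 16.9 FPKM in Cfp1-cKO hearts, against 16.9, 11.9 and 15.7 FPKM in WT hearts. The ranges overlapped, with WT 2 the lowest library. The log2 fold change was 0.20 (SE 0.17, adjusted p = 0.363 from limma), and its sign turned after scaling (-0.22, adjusted p = 0.413 from limma). Jph2 (ENSMUSG00000017817, chr2:163336242-163397993, minus strand) encodes junctophilin 2, which holds the store against the surface membrane. It had 36.5, 39.2 and 50.6 FPKM in Cfp1-cKO hearts, against 38.1, 46.9 and 41.5 FPKM in WT hearts. The deposited values overlapped (log2 fold change -0.01, SE 0.17, adjusted p = 0.966 from limma). After scaling every Cfp1-cKO library lay below every WT library, and Jph2 was not called (-0.45, adjusted p = 0.168 from limma).

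Set against Ryr2, Jph2 and Asph were higher in every Cfp1-cKO library than in any WT library. Jph2/Ryr2 was 2.44, 2.38 and 1.84 in Cfp1-cKO hearts, against 1.11, 1.15 and 0.894 in WT hearts (log2 difference 1.07, SE 0.17). Asph/Ryr2 was 1.07, 1.11 and 0.616 in Cfp1-cKO hearts, against 0.492, 0.292 and 0.339 in WT hearts (log2 difference 1.30, SE 0.35). Neither ratio overlapped between the genotypes, and each reached the smallest exact permutation p of 0.10 (0.157 adjusted). Jph2 and Asph themselves overlapped as deposited, and the lower Ryr2 level enters both ratios. Trdn/Ryr2 overlapped (log2 difference 0.62, SE 0.28, exact permutation p = 0.20), and its difference was 0.41 without WT 3.

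**Figure D3:**
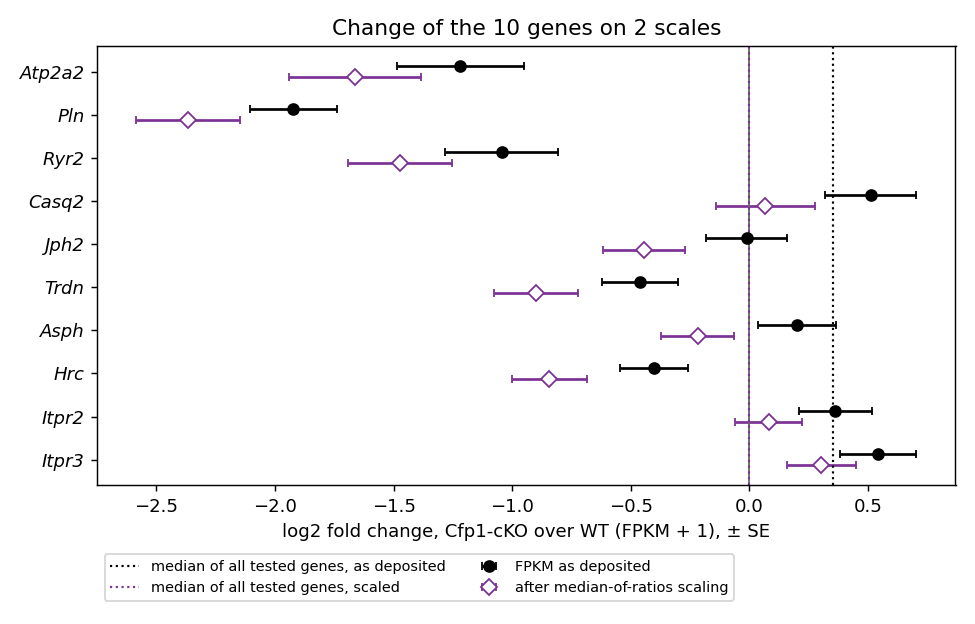
Log2 fold change (Cfp1-cKO over WT, on FPKM + 1) of the 10 genes with its standard error, from FPKM as deposited (filled circles) and after median-of-ratios scaling (open diamonds), and the medians of all tested genes as dotted lines at 0.35 and 0.00. Pln, Atp2a2 and Ryr2 lie below -1 on both scales, and scaling moves every gene to the left.

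Itpr2 and Itpr3 encode IP3 receptors, calcium release channels of many cell types that are scarce in ventricular muscle. Itpr2 (ENSMUSG00000030287, chr6:146108299-146502223, minus strand) had 1.93, 2.22 and 2.096 FPKM in Cfp1-cKO hearts, against 1.19, 1.63 and 1.38 FPKM in WT hearts. The genotypes did not overlap, but Itpr2 was not called (log2 fold change 0.36, SE 0.15, adjusted p = 0.107 from limma; 0.08, adjusted p = 0.757 after scaling). It rested on 368 to 559 fragments a library.

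Itpr3 (ENSMUSG00000042644, chr17:27057304-27122223, plus strand) had 1.51, 1.61 and 1.76 FPKM in Cfp1-cKO hearts, against 0.632, 0.950 and 0.834 FPKM in WT hearts. Each Cfp1-cKO library was above each WT library. It was called higher (log2 fold change 0.54, SE 0.16, adjusted p = 0.0416 from limma) but not after scaling (0.30, adjusted p = 0.247 from limma). Because it entered the test only through the genotype where it is high, the call is no support for a change. Without the filter it was not called (adjusted p = 0.0759 from limma), and leaving out any 1 of the 6 libraries lost the call (adjusted p = 0.0525 to 0.153 from limma). Itpr3 is also expressed in epithelia, and the lung epithelium sums moved with it. Their part in the result was not tested.

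As a share of IP3 receptor plus Ryr2 FPKM, the 3 IP3 receptor genes together took 28.9%, 30.5% and 23.8% in Cfp1-cKO hearts, against 9.95%, 9.47% and 9.27% in WT hearts. This share was chosen after its values were seen and has no test. Among the fixed ratios, Itpr2/Ryr2 was 0.113 ± 0.0320 in Cfp1-cKO and 0.0348 ± 0.00511 in WT hearts (SD, n = 3 each). Itpr3/Ryr2 was 0.0874 ± 0.0203 in Cfp1-cKO and 0.0199 ± 0.00294 in WT hearts. Neither overlapped between the genotypes (exact permutation p = 0.10, 0.157 adjusted), and the lower Ryr2 level enters the share and both ratios.

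The 10 genes were also set against cardiomyocyte markers. For genes of many cell types, such as Itpr2 and Itpr3, this is not a level per cardiomyocyte. Among the markers, Tnnt2, Ckm and Myl3 were themselves called lower. Each value is log2 FPKM minus the mean log2 FPKM of the 14 cardiomyocyte markers. That mean was 8.32 ± 0.26 in Cfp1-cKO and 8.63 ± 0.33 in WT hearts (SD, n = 3 each, exact permutation p = 0.30). On this scale Pln (log2 difference -1.62, SE 0.24), Atp2a2 (-0.90, SE 0.42) and Ryr2 (-0.77, SE 0.31) were lower in all Cfp1-cKO libraries. Casq2 (0.83, SE 0.07), Asph (0.53, SE 0.21), Itpr2 (0.90, SE 0.36) and Itpr3 (1.35, SE 0.36) were higher in all of them. Each of these 7 reached the smallest exact permutation p of 0.10 (0.143 adjusted over the 10 genes). As deposited, 49.7% of all tested genes did not overlap (46.4% higher), and that share was not computed on this scale. Jph2 (0.31), Trdn (-0.15) and Hrc (-0.09) overlapped (exact permutation p = 0.40 to 0.70), and Trdn and Hrc changed sign without WT 2, to 0.08 and 0.05. Without WT 2 the Atp2a2 difference was -0.54 and that of Jph2 0.57, and without Cfp1-cKO 2 that of Asph was 0.34. The Pln values of the 3 Cfp1-cKO libraries were nearly equal here, at -1.30, -1.31 and -1.24, against 0.30, 0.75 and -0.06 in WT hearts. Those of Casq2 were close together within each genotype, at 0.60, 0.71 and 0.49 in Cfp1-cKO hearts, against -0.21, -0.22 and -0.26 in WT hearts.

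Of 81 further calcium handling genes in 6 lists, 78 were in the table and 65 passed the filter. By limma 12 were called higher (18.5%, against 21.1% of all tested genes) and 4 lower (6.15%, against 1.68%). After median-of-ratios scaling 2 were higher (3.08%, against 3.52%) and 5 lower (7.69%, against 3.27%). The lists follow the route of calcium.

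Among 11 tested pumps and pump regulators, 2 fell (against 1.68% of all tested genes) and 3 rose (against 21.1%). Sln encodes sarcolipin, the pump inhibitor of the atria. It had 3.43, 18.7 and 5.94 FPKM in Cfp1-cKO hearts, against 48.7, 54.5 and 72.3 FPKM in WT hearts (on the log2 scale -2.79, SE 0.47, adjusted p = 0.00939 from limma; -3.21 after scaling). The genotypes did not overlap, and Cfp1-cKO 2 was the highest of its genotype. Of 8 atrial markers, Myl7 and Mybphl were called lower (against 1.68% of all tested genes) and Nppa higher (against 21.1%). After scaling Myl7 and Mybphl were still called lower (against 3.27%), and none was called higher by limma (against 3.52%). The 8 atrial markers summed to 356 to 654 FPKM in Cfp1-cKO and 859 to 1542 FPKM in WT hearts, with none at 0 in all WT libraries. Their part in the Sln result was not tested. Sln/Atp2a2 overlapped between the genotypes (log2 difference -1.77, SE 0.84, exact permutation p = 0.20).

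Ppp1r3a, a targeting subunit of protein phosphatase 1, had 9.65, 12.1 and 22.1 FPKM in Cfp1-cKO hearts, against 33.2, 29.6 and 40.9 FPKM in WT hearts (on the log2 scale -1.25, adjusted p = 0.0205 from limma). This call was lost without Cfp1-cKO 1, Cfp1-cKO 2 or WT 1 (adjusted p up to 0.0835 from limma with 1 library left out). Atp2a3, the SERCA3 pump of non-muscle cells (0.78), Tmbim6 (0.83) and Hax1, which binds phospholamban (0.57), were called higher, and none of the 3 by limma after scaling, where 2 genes of the list were higher at an unadjusted p below 0.05. Their calls were also lost without single libraries, for Atp2a3 without Cfp1-cKO 2, Cfp1-cKO 3 or WT 1 (adjusted p up to 0.0651 from limma), for Tmbim6 without Cfp1-cKO 2 or WT 1 (up to 0.0525) and for Hax1 without any 1 of the 6 (up to 0.164). Of 6 tested macrophage markers 3 were called higher (against 21.1% of all tested genes) and 3 were not called. After scaling 2 were called higher, Cd68 and Lyz2 (against 3.52%). The macrophage list summed to 470.0 to 822 FPKM in Cfp1-cKO and 79.2 to 90.5 FPKM in WT hearts, and its part in the Atp2a3 result was not tested. Strit1, the micropeptide DWORF that relieves the pump of phospholamban, is listed under an older name, Gm34302. It had 7.18, 4.20 and 0.457 FPKM in Cfp1-cKO hearts, against 1.45, 0 and 0.686 FPKM in WT hearts, and was not called (log2 fold change 1.30, adjusted p = 0.126 from limma). It entered the test only through the Cfp1-cKO libraries. It was called higher without Cfp1-cKO 3 (2.02, adjusted p = 0.0257 from limma), and its log2 fold change was 0.78 without Cfp1-cKO 1.

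Among 10 tested release, store and junction genes, 2 rose (against 21.1% of all tested genes) and 1 fell (against 1.68%). Casq1, the calsequestrin of fast skeletal muscle, had 14.5, 12.8 and 16.7 FPKM in Cfp1-cKO hearts, against 1.04, 0.571 and 3.05 FPKM in WT hearts. Every Cfp1-cKO library exceeded every WT library several-fold (log2 fold change 2.73, SE 0.32, adjusted p = 0.00199 from limma; 2.41, adjusted p = 0.00681 after scaling), and the call held with any 1 library left out. Casq1 was 2.76%, 2.91% and 3.14% of the Casq1 plus Casq2 level in Cfp1-cKO hearts, against 0.276%, 0.216% and 0.773% in WT hearts, a share chosen after its values were seen. Of the 6 skeletal muscle markers measured, 2 passed the filter, with Acta1 higher and Ckm lower. The list summed to 252 to 338 FPKM in Cfp1-cKO and 275 to 420 FPKM in WT hearts, mostly Ckm and Acta1. Of its fast fibre genes, Myh1 and Actn3 were at 0.228 FPKM or less in every library and Mylpf overlapped, at 0.791 to 1.26 FPKM in Cfp1-cKO and 0.314 to 0.949 FPKM in WT hearts. Tnnt3, the fast skeletal troponin T gene, did not overlap, at 0.681, 2.16 and 0.842 FPKM in Cfp1-cKO hearts, against 0.278, 0.201 and 0.211 FPKM in WT hearts. The part of these markers in the Casq1 result was not tested.

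Tmem38a, the TRIC-A potassium channel that balances charge during calcium release, had 52.1, 44.1 and 59.8 FPKM in Cfp1-cKO hearts, against 133, 111 and 147 FPKM in WT hearts. The genotypes were well apart (log2 fold change -1.31, SE 0.18, adjusted p = 0.00374 from limma; -1.75 after scaling). Calr, the calreticulin buffer that is high in the embryonic heart, had 80.3, 108 and 104 FPKM in Cfp1-cKO hearts, against 57.3, 35.6 and 72.2 FPKM in WT hearts (0.86, adjusted p = 0.0448 from limma; 0.42, adjusted p = 0.307 after scaling), and the call held with 1 library left out only when that was WT 3 (adjusted p = 0.0216 to 0.147 from limma). Srl, the sarcalumenin buffer, overlapped between the genotypes (-0.11, adjusted p = 0.768 from limma), and also after scaling (-0.55, adjusted p = 0.239 from limma). Itpr1, the third IP3 receptor gene, had a log2 fold change of 0.57 and was not called (adjusted p = 0.0699 from limma), nor after scaling (0.25, adjusted p = 0.3855 from limma).

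**Figure D4:**
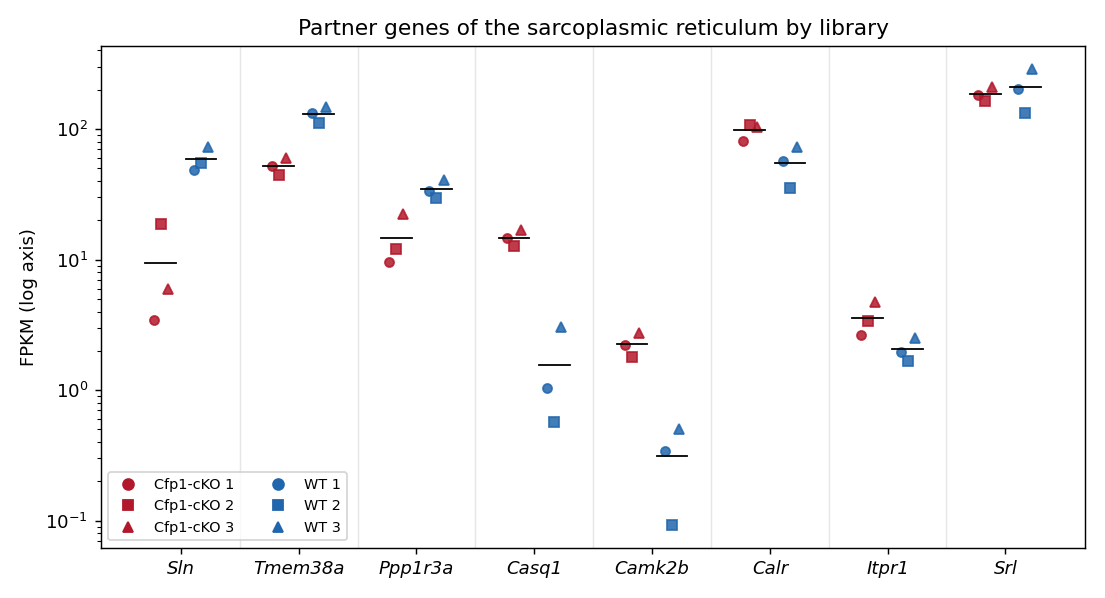
FPKM (log axis) in each library of 8 partner genes of the sarcoplasmic reticulum, with Cfp1-cKO in red left of WT in blue, a symbol for each library and black bars at group means. Sln, Tmem38a and Ppp1r3a are lower and Casq1 and Camk2b higher in all 3 Cfp1-cKO libraries, Calr and Itpr1 are higher but move with the scaling between libraries, and Srl overlaps.

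Of 17 tested calcium sensors and kinases, 4 rose by limma, against 21.1% of all tested genes, and none fell (1 was lower at an unadjusted p below 0.05, and voom also called none lower), and 1, Camk2b, was still called higher after scaling. Camk2b, a CaMKII subunit gene, had 2.21, 1.80 and 2.75 FPKM in Cfp1-cKO hearts, against 0.343, 0.0930 and 0.505 FPKM in WT hearts (on the log2 scale 1.31, SE 0.19, adjusted p = 0.00560 from limma; 1.11 after scaling). It entered the test only through the Cfp1-cKO libraries, was still called without the filter (adjusted p = 0.0231 from limma) and was not called with a pseudocount of 5, where its log2 fold change was 0.45. The calmodulin gene Calm3 (0.99) and the protein kinase A regulatory subunit gene Prkar1a (0.87) were also called higher. With 1 library left out, Prkar1a kept its call each time and Camk2b in 5 of 6, its mean being under the filter without Cfp1-cKO 3, and Calm3 lost its call without Cfp1-cKO 2, Cfp1-cKO 3 or WT 1 (adjusted p up to 0.0693 from limma).

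At the surface membrane 1 of 11 tested genes rose (against 21.1% of all tested genes) and none fell by limma or voom (1 was lower at an unadjusted p below 0.05). Slc8a1, the sodium-calcium exchanger that removes calcium from the cell, had 31.6, 40.5 and 49.3 FPKM in Cfp1-cKO hearts, against 48.6, 24.1 and 53.8 FPKM in WT hearts. The groups overlapped (log2 fold change 0.00, SE 0.30), and also after scaling (-0.435, adjusted p = 0.369 from limma). Slc8a1/Atp2a2 did not overlap, at 0.0781 ± 0.0136 in Cfp1-cKO and 0.0375 ± 0.0192 in WT hearts (SD, n = 3 each, exact permutation p = 0.10, 0.157 adjusted). The log2 difference was 1.22, and 0.69 without WT 2, whose ratio was the lowest at 0.0158. Cacna1c, the L-type calcium channel that triggers release, also overlapped (0.13, adjusted p = 0.704 from limma), and after scaling as well (-0.26, adjusted p = 0.502 from limma). Bin1, which shapes transverse tubules, was called higher (0.79, adjusted p = 0.0281 from limma; 0.48, adjusted p = 0.147 after scaling), a call lost without Cfp1-cKO 2, Cfp1-cKO 3, WT 1 or WT 2 (adjusted p up to 0.110 from limma). Cav3, the muscle caveolin, was not called as deposited (-0.82, adjusted p = 0.0521 from limma) but was called lower after scaling (-1.25, adjusted p = 0.0490 from limma).

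None of 5 tested store-operated entry genes was called by limma on either scale or by voom. Of all tested genes, 22.8% were called by limma as deposited and 6.79% after scaling. Of the 5, 3 were higher at an unadjusted p below 0.05 on the deposited scale and none after scaling. Of 11 tested mitochondrial uptake genes 1 fell and 2 rose (against 1.68% and 21.1% of all tested genes), among them the uniporter regulator Micu2 (log2 fold change 0.85), which was not called after scaling. Vdac1, a channel of the outer mitochondrial membrane, fell (-0.62, adjusted p = 0.0272 from limma; -1.06, adjusted p = 0.0188 after scaling). The Micu2 call was lost without any 1 of the Cfp1-cKO libraries (adjusted p up to 0.0640 from limma) and that of Vdac1 with each library but WT 3 left out (up to 0.115).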

How the data were processed

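RNA of 3 Cfp1-cKO and 3 WT hearts was prepared with a TruSeq kit and sequenced. The authors deposited FPKM per gene, as a plain and an annotated table with identical values. The submitters' processing notes name CASAVA, Bowtie2 2.2.3, HISAT2 2.1.0, TopHat2, HTSeq 0.6.0, DESeq2 and GRCm38, without their order. The paper gives a chicken genome address for the reference, but 26801 of 26881 gene identifiers matched GENCODE release 21 for mouse, 24410 of them with equal coordinates. The extraction text speaks of retinas, which could not be related to these hearts, whose cardiomyocyte markers were high.

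FPKM were whole multiples of 1 fragment, within 0.02 fragments in all libraries, for 89.2% of genes with the GENCODE length, Itpr3 being the only exception among the 10 members. Replicates differed by more than sampling noise in every pair (chi-square per degree of freedom 30.19 to 77.07). The fit of log2(FPKM + 1) used limma 3.58.1 under R 4.3.3, its prior variance following a trend. The procedure was tried on simulated data with balanced changes, which does not cover a shift of the median gene as seen here. Ratios and levels relative to markers were compared with two-sided exact permutation tests and adjusted by Benjamini-Hochberg. Tables and plots were made in Python 3.11.15 (numpy 2.4.6, pandas 2.3.3, matplotlib 3.10.9). Promoters are from RefSeq.

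The members and lists were chosen with earlier results of these data known. Named genes were the 10 members, up to 4 called genes of each list with the largest fold change, Sln, Strit1, Slc8a1, Cacna1c, Srl, Calr, Itpr1, Cxxc1, and the 5 genes nearest in pattern to Pln and to Atp2a2. Of 164 listed genes, markers included, 160 were in the table, and Erln, Arln, Spegnb and Myh4 were not analysed here. A few called list genes are not reported here. The alternatives covered the pseudocount, filter, scaling, abundant genes, variance trend, library weights, voom on recovered fragments, replicate block and each library left out. Sex as a covariate was added after seeing the data. Same-numbered libraries were not shown to be paired, so the main comparison has no block.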

Additional observations from a re-analysis of the deposited data

How the results depend on the processing

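Pln, Casq1, Sln and Tmem38a were called under every alternative fit, including each library left out. Across all genes 2510 calls became 1151 with a pseudocount of 5, 1609 with no filter, 1179 with a mean of at least 5 FPKM, 740 with median-of-ratios scaling (384 higher and 356 lower, against 2325 and 185), 4127 with TPM scaling, 1659 without mitochondrially encoded and haemoglobin genes, 4399 with library weights, 733 with scaling and sex together, and 502 to 2815 with 1 library left out. Calls among the 10 members, 4 as reported, fell to 1 (Pln) with no filter and ranged from 1 to 4 with 1 library left out, 1 being without Cfp1-cKO 1 and without Cfp1-cKO 2. They were 3 with a pseudocount of 0.1 or 5. They rose to 5 with TPM scaling, 5 without mitochondrially encoded and haemoglobin genes, and 6 with library weights. Trdn and Hrc were called lower without those abundant genes and with library weights. Calls in the partner lists, 16 as reported, became 7 with median-of-ratios scaling, alone or with sex, 25 with TPM scaling, and 5 to 17 with 1 library left out. Jph2 changed sign with TPM scaling (0.11), library weights (0.10), sex as a covariate (0.019) and with 1 library left out (-0.147 to 0.083), and Asph with median-of-ratios scaling (-0.22, and -0.18 with sex). Atp2a2/Ryr2 ranged from -0.229 to 0.028 with 1 library left out, and relative to cardiomyocyte markers Trdn ranged from -0.377 to 0.081 and Hrc from -0.219 to 0.054. The cause of these shifts was not tested, beyond fewer genes tested with a stricter filter and fewer libraries when 1 was left out. With the replicate number as a block (replicate block), 1749 genes and 3 of the 10 members were called, with Itpr3 lost (adjusted p = 0.0679 from limma). Deviations of same-numbered libraries correlated at 0.108, 0.036 and 0.104, and each library correlated best with its own number, a hint from the data and not the design. The block left the Pln to Atp2a2 difference at -0.71. Among the 10 members the fewest fragments were those of Itpr3, at an estimated 129 to 286 a library.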
